A study of Ovis aries with 15 samples.

Results

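ADRB3, ADRA1A, NPR3 and ADORA2B encode cell surface receptors through which noradrenaline, natriuretic peptides and adenosine act on fat cells. They were taken by gene name from the 3 promoter tables of the series, 1 for each of the histone marks H3K27ac, H3K4me3 and H3K27me3. These 4 promoters are among 18460 listed in any of the tables, and all 4 are among the 1910 listed in all 3. The tissue was perirenal adipose tissue, the fat around the kidney, from purebred merino sheep that were wild type and untreated. Fetuses were sampled at 132 ± 1 days after conception (term 150 ± 3 days), and lambs at 80 days after birth in the sample labels but at 89 ± 7 days in the growth protocol. Each mark had 2 fetuses, and it had 2 lambs for H3K27ac and H3K27me3 and 3 lambs for H3K4me3. The same animal numbers recur across marks, so fetus 1 is the same animal in each. Only lamb titles carry the ending VEH, which the labels do not explain, so its meaning and stage cannot be told apart. The series title sets the comparison within the change of this depot from brown to white fat.

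Brown fat burns fatty acids to make heat, while white fat stores them. Noradrenaline from sympathetic nerves binds the beta-3 adrenergic receptor (ADRB3), which raises cyclic AMP, activates protein kinase A and so drives lipolysis and the heat-producing protein UCP1. The alpha-1A adrenergic receptor (ADRA1A) acts instead through Gq proteins and calcium. Natriuretic peptides from the heart drive lipolysis through cyclic GMP, and NPR3, the clearance receptor, removes these peptides from the cell surface. ADORA2B is the low-affinity adenosine receptor that raises cyclic AMP. H3K27ac and H3K4me3 are marks of active promoters, and H3K27me3 is the mark that Polycomb complexes place on silenced ones.

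The 13 libraries held 12482468 to 58333449 reads in peak regions for H3K4me3, 34871674 to 44096535 for H3K27ac and 7233767 to 10645917 for H3K27me3. Lambs 2 and 3 were the shallowest H3K4me3 libraries, with 13090548 and 12482468 reads. Promoter values below are the deposited signal after each library was brought to a common scale, so they are comparable between libraries of a mark and not between marks. They are not divided by gene or window length, so they are not compared between receptors as levels. Changes are log2 differences, lamb minus fetus, from limma on log2(value + 1), with p-values adjusted by Benjamini-Hochberg over all promoters of the mark, and a promoter passed at an adjusted p under 0.05. The median change of all promoters was 0.02 for H3K27ac, 0.00 for H3K4me3 and 0.02 for H3K27me3. The tissue was bulk, so fewer cells that carry a mark and less of the mark per cell cannot be told apart in any value here.

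**Figure D1:**
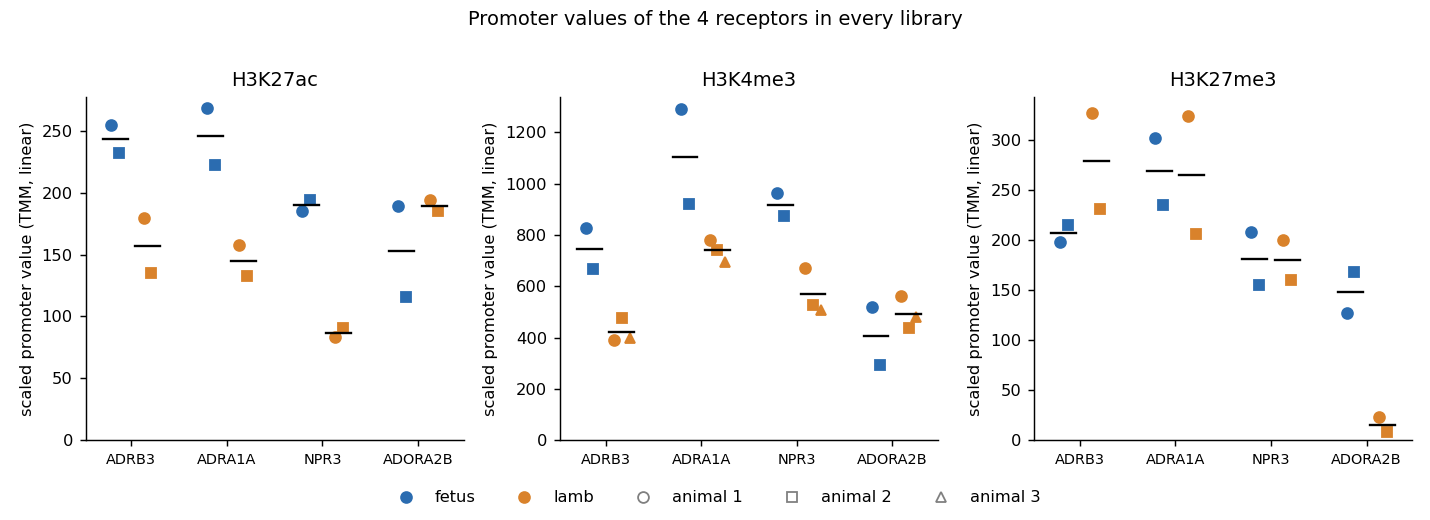
Scaled promoter value of each receptor, 1 panel per mark with the receptors along the x axis and 1 point per library. A bar marks the mean of each stage, and every value axis starts at 0. The H3K27ac points of ADRB3, ADRA1A and NPR3 are lower in both lambs than in both fetuses, as at 33.5% of all H3K27ac promoters. The H3K27me3 points of ADORA2B fall from 128 and 168 in the fetuses to 22.9 and 8.24 in the lambs.

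The H3K27ac signal of 3 of the 4 promoters, ADRB3, ADRA1A and NPR3, was lower in lambs, with log2 changes from -1.12 to -0.64, while the difference for ADORA2B did not pass. In H3K4me3 all lambs lay below both fetuses for these same 3 promoters, as at 22.8% of all promoters. Only ADRB3 passed in that mark, close to the threshold (limma adjusted p = 0.0425, against 0.0696 for NPR3). In H3K27me3 only ADORA2B passed, at 10.5% of its fetal mean. In H3K27ac, 17.7% of all promoters passed as lower in lambs and 11.4% as higher. In H3K4me3, 1.9% passed as lower and 8.33% as higher. In H3K27me3, 8.83% passed as lower and 4.42% as higher. These shares are the background against which each call below is read.

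ADRB3 is the beta-adrenergic receptor most specific to adipocytes. Its H3K27ac value was 254 in fetus 1 and 232 in fetus 2, against 180 in lamb 1 and 135 in lamb 2. Both lambs were below both fetuses, an order that 33.5% of all H3K27ac promoters share. The mean went from 243 ± 15.7 (SD, n = 2) to 157 ± 31.6 (SD, n = 2), and the change was -0.64 (SE 0.17, limma adjusted p = 0.00847, 95% interval -0.99 to -0.29). Leaving out lamb 2 ended this call, with a change of -0.43 and a limma adjusted p of 0.221. The change lay at percentile 7.00 of all H3K27ac changes, counted from the most lowered. Among promoters of like mean level (1 of 10 equal groups by level) it lay at percentile 4.69.

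The H3K4me3 value of ADRB3 was 825 and 666 in the fetuses and 392, 476 and 399 in the 3 lambs. All lambs were below both fetuses, as at 22.8% of all H3K4me3 promoters. The mean fell from 746 ± 113 (SD, n = 2) to 422 ± 46.4 (SD, n = 3), a change of -0.82 (SE 0.27, limma adjusted p = 0.0425, 95% interval -1.35 to -0.28). This call was close to the threshold. It was lost without lamb 1 (-0.74, limma adjusted p = 0.0731), without lamb 2 (-0.91, 0.223) and without lamb 3 (-0.78, 0.447), and with 2 of the other ways of scaling the libraries. In H3K27me3 its values were 198 and 215 in the fetuses and 328 and 231 in the lambs. Both lambs were above both fetuses, as at 30.5% of all H3K27me3 promoters. The change of 0.41 did not pass (limma adjusted p = 0.300, 95% interval -0.14 to 0.96).

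ADRA1A followed the same H3K27ac direction. Its H3K27ac value was 268 and 222 in the fetuses and 158 and 132 in the lambs. Both lambs were below both fetuses, as at 33.5% of all H3K27ac promoters. The mean went from 245 ± 32.3 (SD, n = 2) to 145 ± 18.1 (SD, n = 2), which is 59.2% of the fetal mean. The change was -0.75 (SE 0.16, limma adjusted p = 0.00272, 95% interval -1.10 to -0.41). Without lamb 2 it was -0.63 and did not pass (limma adjusted p = 0.0597). In H3K4me3 the values were 1289 and 920 in the fetuses and 781, 741 and 696 in the lambs. All lambs were again below both fetuses, as at 22.8% of all H3K4me3 promoters. Fetus 1 stood far above fetus 2, and the change of -0.56 did not pass (limma adjusted p = 0.144, 95% interval -1.12 to 0.00). Promoters with as much H3K4me3 as ADRA1A had a median change of -0.50, and within that level group ADRA1A lay at percentile 37.0. Its H3K27me3 values, 302 and 236 in the fetuses and 324 and 206 in the lambs, overlapped, with a change of -0.05 (limma adjusted p = 0.926, 95% interval -0.60 to 0.51).

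NPR3 had the lowest H3K27ac in lambs relative to fetuses of the 4 receptors. Its H3K27ac value was 185 and 194 in the fetuses and 83.2 and 90.5 in the lambs. The spread within each stage was small beside the gap between them. The mean went from 190 ± 6.32 (SD, n = 2) to 86.8 ± 5.14 (SD, n = 2), or 45.8% of the fetal mean, a change of -1.12 (SE 0.19, limma adjusted p = 0.000525, 95% interval -1.53 to -0.71). It ranked 72 from the most lowered of 13222 promoters, and lay at percentile 0.227 among promoters of its own level. The call held in all 10 alternative settings tried, with changes from -1.44 to -1.001.

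The H3K4me3 value of NPR3 was 962 and 874 in the fetuses and 672, 526 and 509 in the lambs. The lambs lay below the fetuses without overlap, as at 22.8% of all H3K4me3 promoters. The change of -0.70 missed the threshold (limma adjusted p = 0.0696, 95% interval -1.23 to -0.16). With fetus 1 left out, which leaves 1 fetus, it was -0.63. The group of promoters with a similar level had a median change of -0.40, and NPR3 lay at percentile 9.13 in it. Its H3K27me3 values overlapped, at 208 and 155 in the fetuses and 200 and 161 in the lambs. Their change was -0.00 (limma adjusted p = 0.995), with a 95% interval from -0.62 to 0.61.

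ADORA2B stood apart from the other receptors in which mark passed. Its H3K27me3 value was 128 and 168 in the fetuses and 22.9 and 8.24 in the lambs. Both lambs were far below both fetuses, an order shared by 29.3% of all H3K27me3 promoters. The mean went from 148 ± 28.7 (SD, n = 2) to 15.6 ± 10.4 (SD, n = 2), which is 9.50-fold lower. The change on the log2(value + 1) scale was -3.31 (SE 0.64, limma adjusted p = 0.00275, 95% interval -4.64 to -1.98). With a pseudocount of 16 in place of 1 the change was -2.41 (limma adjusted p = 0.00177). It ranked 2 from the most lowered of 6334 promoters, after GSN at -3.34, the gene of the actin-severing protein gelsolin. ADORA2B is in the H3K27me3 table through its fetal values alone: as deposited they were 130 and 173, against 25.0 and 7.11 in the lambs, and the highest value of every listed promoter was at least about 51.5. A promoter this low in lambs had to be higher in fetuses to be listed, and the call and the rank are read with that limit. Few reads lie behind these values: dividing by the value of 1 read gave 38 and 50 reads in the fetuses and 7 and 2 in the lambs. The exact Poisson 95% intervals were 26.9 to 52.2 and 37.1 to 65.9 reads in the fetuses, and 2.81 to 14.4 and 0.242 to 7.22 in the lambs. These intervals cover counting error only. The call was lost when lamb 2 was left out (-2.63, limma adjusted p = 0.135), a setting in which 0 of 6334 promoters passed in limma and 1797 had an unadjusted p under 0.05.

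The active marks of ADORA2B did not pass. Its H3K27ac value was 189 in fetus 1 and 115 in fetus 2, and 194 and 185 in the lambs. The stages overlapped because fetus 1 was as high as the lambs, and the change was 0.35 (SE 0.20, limma adjusted p = 0.197, 95% interval -0.07 to 0.78). Without fetus 1 it was 0.71 and without fetus 2 it was 0.011. Each of these settings leaves 1 fetus and so no spread among fetuses. The H3K4me3 value was likewise lowest in fetus 2, with 518 and 293 in the fetuses and 562, 437 and 481 in the lambs. That change was 0.33 (limma adjusted p = 0.379, 95% interval -0.24 to 0.90). It was 0.74 without fetus 1 and -0.08 without fetus 2, again with 1 fetus left.

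**Figure D2:**
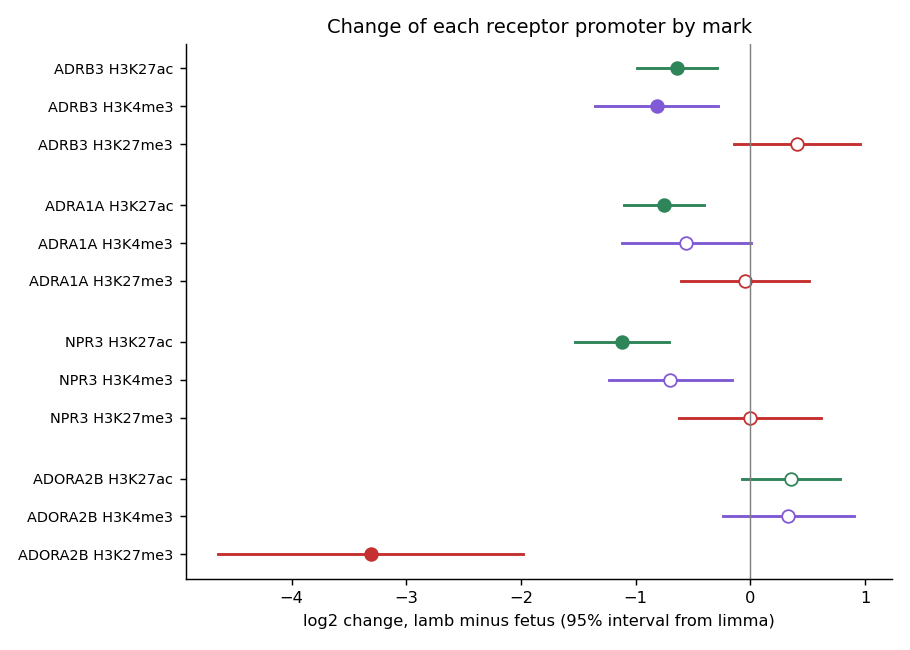
Log2 change (lamb minus fetus, on the log2(value + 1) scale) of each receptor in each mark, with the 95% interval from limma; filled points have an adjusted p under 0.05 and open points do not. H3K27ac is below 0 for ADRB3, ADRA1A and NPR3, and the point far below 0 is H3K27me3 of ADORA2B at -3.31.

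The plot of changes against level places the receptors among all promoters of each mark. In H3K4me3 promoters of higher mean value were lower in lambs and those of low value higher, so the level of a promoter bears on what its change is compared with. Among H3K4me3 promoters of the level of ADRB3 the median change was -0.25, and ADRB3 lay at percentile 1.55 of them. In H3K27ac the medians of the level groups that hold ADRB3 and NPR3 were 0.03 and 0.20, with the receptors' own changes at -0.64 and -1.12.

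**Figure D3:**
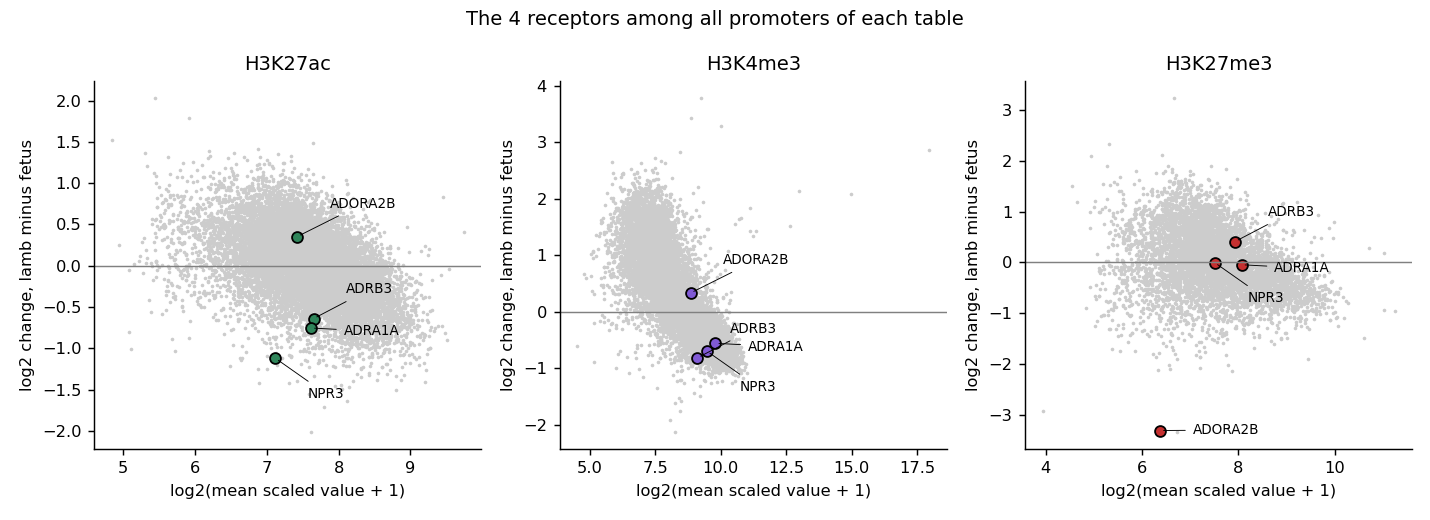
Log2 change (lamb minus fetus) of every promoter against its mean level on a log scale, log2(mean scaled value + 1), 1 panel per mark, with the 4 receptors drawn larger and named. NPR3 is near the lower edge of the H3K27ac cloud (rank 72 of 13222), and ADORA2B is the second lowest point of the H3K27me3 panel (rank 2 of 6334).

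H3K27ac and H3K27me3 sit on the same lysine residue, so the difference of their log2 values was taken within each animal. For ADORA2B it was 0.57 and -0.54 in the fetuses and 3.02 and 4.33 in the lambs, higher in both lambs than in either fetus. The mean shift of 3.66 ranked 2 from the highest among 2297 promoters listed for both marks, whose median shift was 0.47. This shift rests on the same H3K27me3 values, and so on a listing through fetal values alone. The other 3 receptors moved the opposite way. ADRB3 went from 0.36 and 0.11 to -0.86 and -0.77, a shift of -1.05 that ranked 2221. NPR3 went from -0.17 and 0.32 to -1.25 and -0.82, a shift of -1.12 that ranked 2235. ADRA1A went from -0.17 and -0.08 to -1.03 and -0.64, a shift of -0.71 that ranked 2135. These ranks rest on the values already described and were given no test.

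The authors' deposited tables hold their own fold change (lamb against fetus, with a minus sign for lower in lambs) and false discovery rate for each promoter. In the authors' deposited table for H3K27ac the folds were -1.55 for ADRB3 (0.00296), -1.70 for ADRA1A (0.000278), -2.18 for NPR3 (6.4e-07) and 1.23 for ADORA2B (0.305). In the authors' deposited table for H3K4me3 they were -1.77 for ADRB3 (0.02002), -1.49 for ADRA1A (0.131), -1.61 for NPR3 (0.0587) and 1.22 for ADORA2B (0.482). In the authors' deposited table for H3K27me3 they were 1.35 for ADRB3 (0.292), -1.01 for ADRA1A (0.985), -1.01 for NPR3 (1) and -9.24 for ADORA2B (3.18e-06). At 0.05 both sets of values call the same receptors in the same marks.

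The family list holds 16 adrenergic, natriuretic peptide and adenosine receptor genes, and of the 12 besides the 4 receptors, 6 were measured in H3K27ac, 9 in H3K4me3 and 7 in H3K27me3. In H3K27ac 1 of these 6 passed. ADRA2A, the alpha-2A adrenergic receptor that lowers cyclic AMP and so restrains lipolysis, was higher in lambs, at 79.7 ± 3.85 in fetuses and 136 ± 7.81 in lambs (SD, n = 2 each; change 0.77, limma adjusted p = 0.0156). This call held in 6 of 10 alternatives and was lost without lamb 1, without lamb 2 and under 2 other scalings (limma adjusted p up to 0.349). ADRB1, the beta-1 adrenergic receptor, had a change of -0.22 and did not pass (limma adjusted p = 0.355). The guanylyl cyclase receptors for natriuretic peptides, NPR1 and NPR2, had changes of -0.07 (limma adjusted p = 0.766) and 0.47 (0.0945), and ADRA1B one of 0.44 (0.109). The differences between these receptors and the 4 were not tested.

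In H3K4me3 none of the 9 other family members passed in limma. The largest change among them was 0.90 for ADRA1B (limma adjusted p = 0.094). In H3K27me3 1 of 7 passed. ADORA1, the adenosine receptor that lowers cyclic AMP and restrains lipolysis, was higher in lambs, at 180 ± 7.35 in fetuses and 341 ± 50.7 in lambs (SD, n = 2 each; change 0.91, limma adjusted p = 0.0222). It held in 6 of 10 alternatives and was lost without fetus 1, fetus 2 or lamb 2 and at the deposited scaling (limma adjusted p up to 0.196). ADORA2B and ADORA1 are thus the adenosine receptors called in that mark, in opposite directions. ADRB1 had an H3K27me3 change of -0.52 and did not pass (limma adjusted p = 0.176).

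**Figure D4:**
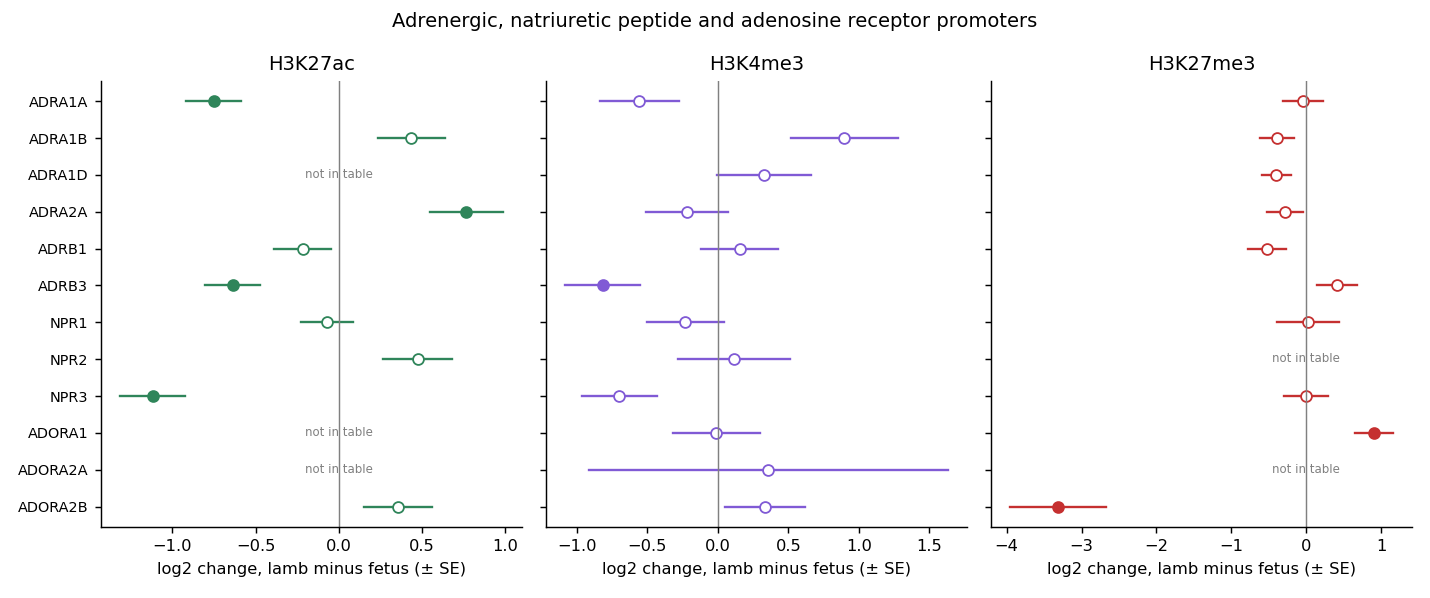
Log2 change (lamb minus fetus) with its standard error for the reported genes of the adrenergic, natriuretic peptide and adenosine receptor families, 1 panel per mark; filled points have an adjusted p under 0.05 and open points do not. In H3K27ac the filled points are ADRB3, ADRA1A and NPR3 below 0 and ADRA2A above 0, and in H3K27me3 they are ADORA2B below 0 and ADORA1 above 0.

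The receptors pass their signal to G proteins, cyclases, kinases and lipases, and 10 lists of such genes, receptors included, were counted with 128 genes in all. In H3K27ac 87 were measured, of which 9 were higher and 18 lower in lambs, beside 11.4% and 17.7% of all promoters. In H3K4me3 85 were measured, with 3 higher and 4 lower, beside 8.33% and 1.9% of all. In H3K27me3 51 were measured, with 3 higher and 7 lower, beside 4.42% and 8.83% of all. The same shares stand beside the count of each list below, and no list was tested against them. Of the genes named below from these lists, PDE1A, PLIN1, FABP4, PPARGC1A, ATF4, MAPK14, UCP1 and DIO2 passed in H3K27ac under all 10 alternatives. The other H3K27ac calls named were each lost without lamb 1 or without lamb 2, except PDE4D, which was lost with cyclic loess scaling. Scaling ended several of the others too. GNAQ, PRKG1, NT5E and GRK6 were lost both at the deposited scaling and with cyclic loess, and CORIN, ADA and AKAP13 at the deposited scaling. RGS2 was lost with column totals and cyclic loess, and PDE7B with cyclic loess. ADCY7, PDE5A, PRKAR2B, AKAP1 and MGLL passed with all 3 other scalings. The H3K27me3 calls of these lists were all lost without lamb 2, and the H3K4me3 calls without lamb 3. No H3K4me3 call of these lists passed with cyclic loess scaling, where 0 of all H3K4me3 promoters did in limma and 1738 had an unadjusted p under 0.05.

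The phosphodiesterases, which break down cyclic AMP and cyclic GMP, had 4 of 9 measured members lower in H3K27ac and none higher, with a list median of -0.41. PDE1A changed by -0.75 (limma adjusted p = 0.00106), PDE4D by -0.62 (0.00109), PDE5A by -0.70 (0.0016) and PDE7B by -0.41 (0.0152). The same list had 2 of 6 members lower in H3K27me3. These were PDE4B at -1.06 (limma adjusted p = 0.0235) and PDE4D at -1.03 (0.0291), which held in 7 and 6 of 10 alternatives. With cyclic loess scaling the H3K27ac change of PDE7B was 0.20, that of PDE4D was -0.12 and the list, with 3 members lower and 1 higher, had a median of -0.02. In H3K4me3 0 of 9 phosphodiesterases passed, with a median of -0.44.

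The lipolysis list had 3 of 10 members lower in H3K27ac and 0 higher, with a median of -0.09. PLIN1, the coat protein of the lipid droplet, went from 583 ± 91.1 to 304 ± 8.57 (change -0.93, limma adjusted p = 8.62e-05). FABP4, the fatty acid carrier, changed by -0.93 (limma adjusted p = 0.000312). MGLL, which cleaves monoglycerides, changed by -0.61 (0.015). PLIN1 was also the 1 of 10 members that passed in H3K4me3, at -1.21 (limma adjusted p = 0.0053), and 0 of 4 passed in H3K27me3. The H3K4me3 call of PLIN1 held in 8 of 12 alternatives.

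Transcription factors and thermogenic targets downstream of cyclic AMP had 5 of 16 members lower in H3K27ac and 0 higher, while the list median was 0.04. UCP1, the uncoupling protein of brown fat, went from 275 ± 8.29 to 143 ± 4.42 (change -0.94, limma adjusted p = 0.000242). PPARGC1A, the coactivator that drives mitochondrial genes, changed by -0.87 (limma adjusted p = 0.00012), ATF4 by -0.89 (0.000123) and MAPK14, the p38 kinase, by -0.98 (0.000188). DIO2, which makes active thyroid hormone, was the fifth gene that passed (-0.85, limma adjusted p = 0.000461) and was named after its value was seen. In H3K4me3 DIO2 changed by -1.04 (limma adjusted p = 0.0308) and NR4A3, a nuclear receptor induced by cyclic AMP, by 1.03 (0.0395; -0.25 at the deposited scaling), and each held in 5 of 12 alternatives. In H3K27me3 NR4A2 and NR4A3 were lower, at -1.54 (limma adjusted p = 0.000291) and -0.87 (0.00488). These calls held in 9 and 6 of 10 alternatives, and the smallest NR4A3 change was -0.23.

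Nearer the receptors the calls were mixed. Among G proteins and cyclases 2 of 10 were higher in H3K27ac, GNAQ at 0.82 (limma adjusted p = 0.0134) and ADCY7 at 1.04 (0.00378). GNAQ encodes the G protein to which ADRA1A couples. GNB1, a G protein beta subunit, passed in H3K4me3 at 1.48 (limma adjusted p = 0.0211). That call held in 6 of 12 alternatives, with a lowest change of 0.20. Of the protein kinases and anchors 2 of 8 were higher in H3K27ac and 2 lower. PRKG1, the cyclic GMP-dependent kinase, changed by 0.93 (limma adjusted p = 0.00631) and AKAP13 by 0.41 (0.0369). PRKAR2B, a regulatory subunit of protein kinase A, changed by -0.56 (limma adjusted p = 0.0162) and the anchor AKAP1 by -0.97 (0.00613).

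Of the proteins that desensitise receptors, GRK6 was higher at 0.78 (limma adjusted p = 0.00843) and RGS2 lower at -0.38 (0.0268), among 10 measured in H3K27ac. RGS16 was lower in H3K27me3 at -1.21 (limma adjusted p = 0.0412), a call that held in 4 of 10 alternatives.

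The genes that make, remove or transport the ligands also include calls. CORIN, the protease that activates atrial natriuretic peptide, was higher in H3K27ac at 0.84 (limma adjusted p = 0.00479). NT5E, which makes adenosine from AMP, was higher at 0.72 (limma adjusted p = 0.0177), and ADA, which removes adenosine, at 0.50 (0.0187). SLC29A1, the adenosine transporter, was lower in H3K4me3 at -0.96 (limma adjusted p = 0.0216), a call that held in 7 of 12 alternatives. In the list of other receptors that restrain or drive lipolysis 0 of 8 passed in H3K27ac. FFAR2, a receptor for short-chain fatty acids, was higher in H3K4me3 at 1.40 (limma adjusted p = 0.0372) and in H3K27me3 at 1.35 (0.0267), and these calls held in 5 of 12 and 5 of 10 alternatives. NPY1R was lower in H3K27me3 at -0.71 (limma adjusted p = 0.0477), a call that held in 3 of 10 alternatives and with 0 of 3 other scalings. The cold channel TRPM8 was higher at 1.20 (limma adjusted p = 0.0494), which held in 5 of 10, with a lowest change of 0.54.

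Marker genes of cell types were counted in the same way, and no marker list was tested against the shares of all promoters. In H3K27ac those shares were 11.4% higher and 17.7% lower. In H3K27ac 13 of 14 adipocyte markers were listed (all but PPARG), and 5 were lower and 0 higher in lambs. Their summed value was 4232 to 4604 in fetuses and 2946 to 3093 in lambs. Stromal and preadipocyte markers, 12 of 12 listed, had 2 higher and 5 lower, and their sum went from 3750 to 4046 in fetuses to 2913 to 3024 in lambs. Lymphocyte markers, 8 of 14 listed, had 4 higher and 0 lower, with sums of 1093 to 1110 in fetuses and 1468 to 1639 in lambs. Markers of sympathetic neurons and the adrenal gland, 4 of 10 listed, had 2 higher and 0 lower, with sums of 664 to 680 and 803.4 to 804.5. At the deposited scaling, where the median change of all promoters was -0.30, 2 lymphocyte and 0 sympathetic and adrenal markers were higher in limma. There 10 adipocyte markers were lower. With cyclic loess the lymphocyte and sympathetic lists had 3 and 2 higher, and the adipocyte list 4 lower. Without lamb 1 the lymphocyte median was 0.37, against 0.62 as reported. The sympathetic and adrenal calls, PHOX2A and NR5A1, were each lost without lamb 1 and without lamb 2. Of the lymphocyte calls only RHOH held in all 10 alternatives, and of the adipocyte calls all but ADIPOQ did. Endothelial markers, 14 of 16 listed, had 0 higher and 3 lower (3130 to 3652 and 2992 to 3118). Smooth muscle and pericyte markers, 8 of 12 listed, had 2 higher and 1 lower (1112 to 1340 and 1398 to 1446), and macrophage markers, 6 of 12 listed, had 1 each way (1124 to 1174 and 1233 to 1287).

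In H3K4me3, the mark of the second ADRB3 call, adipocyte markers had 2 of 13 lower and 0 higher, with sums of 6307 to 7002 in fetuses and 4514 to 5067 in lambs. Lymphocyte markers had 3 of 7 higher and 0 lower (561 to 846 and 1183 to 2006), macrophage markers 2 of 5 higher and 0 lower (1089 to 1423 and 1775 to 2050), and sympathetic neuron and adrenal markers 2 of 5 higher and 0 lower (399 to 1158 and 984 to 1767). Endothelial markers had 1 of 14 higher (6141 to 6602 and 5239 to 6258), stromal markers 1 of 11 lower (5690 to 8030 and 5030 to 5654), and smooth muscle markers 0 of 8 either way (1626 to 2232 and 2174 to 2619). The higher calls of the lymphocyte, macrophage and sympathetic lists fell to 0 in limma with cyclic loess, at the deposited scaling, with the replicate block, without lamb 2 and without lamb 3. At the deposited scaling their medians were -0.07, -0.17 and -0.21, against 1.21, 1.10 and 1.07 as reported. In H3K27me3, the mark of the ADORA2B call, macrophage markers had 1 of 4 higher and 1 lower (784 to 844 and 820 to 832), and endothelial markers 0 of 6 higher and 2 lower (1599 to 1694 and 1002 to 1187). Lymphocyte markers had 1 of 6 higher (1404 to 1506 and 1439 to 1690) and smooth muscle markers 1 of 9 lower (1388 to 1421 and 1294 to 1703). In limma 0 of 4 adipocyte (1082 to 1138 and 870 to 904), 0 of 5 stromal (1525 to 1647 and 1232 to 1320) and 0 of 7 sympathetic markers (2702 to 2838 and 2329 to 2735) passed. Of all promoters, 8.33% passed as higher and 1.9% as lower in H3K4me3, and 4.42% and 8.83% in H3K27me3. No listed marker was at 0 in any library. The part of these marker shifts in the receptor values was not tested.

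To see which other promoters varied as the receptors did, log2 values were centred within each mark and correlated over the 13 libraries. The comparison covered the 1909 promoters in all 3 tables whose name occurs only once in each, the receptors included. These correlations are descriptions, since the libraries share animals, stages and depths. For ADRB3 the most alike were BTC (r = 0.89), SDC4 (0.89) and BRD2 (0.85). For ADRA1A they were SLC22A3 (0.94), the insulin-responsive glucose transporter SLC2A4 (0.92) and SLC27A2 (0.89). For NPR3 they were HOXC5 (0.95), PREX2 (0.92) and FGF-10 (0.92), a growth factor. For ADORA2B they were CDC42EP1 (0.97), CD14 (0.96), a receptor of monocytes and macrophages, and SERPINB1 (0.94).

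The first 3 receptors were alike among themselves and unlike ADORA2B. ADRA1A and NPR3 had r = 0.89, ADRB3 and ADRA1A 0.83, and ADRB3 and NPR3 0.75. Against ADORA2B the values were -0.30 for ADRB3, 0.08 for ADRA1A and -0.08 for NPR3.

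The genes next to each receptor in the RefSeq gene order (5 on each side, on another sheep assembly, with no coordinates taken) were looked up after the receptor values had been seen. Around ADORA2B 3 of 10 neighbours were listed in H3K27me3, and in limma 0 of the 3 passed, with changes from -0.75 to 0.83. In H3K27ac 8 of the 10 neighbours of ADORA2B were listed and 0 passed in limma. Around ADRB3 1 of 8 listed neighbours, LSM1, passed in H3K27ac as lower, and 1 of 2, GOT1L1, passed in H3K27me3 as higher. Around ADRA1A 3 of 6 listed neighbours, EPHX2, DPYSL2 and PPP2R2A, were lower in H3K27ac. Around NPR3 2 of 6 passed in that mark, SUB1 and GOLPH3, in opposite directions. Of all promoters, 17.7% passed as lower and 11.4% as higher in H3K27ac, and 4.42% as higher in H3K27me3.

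**Figure D5:**
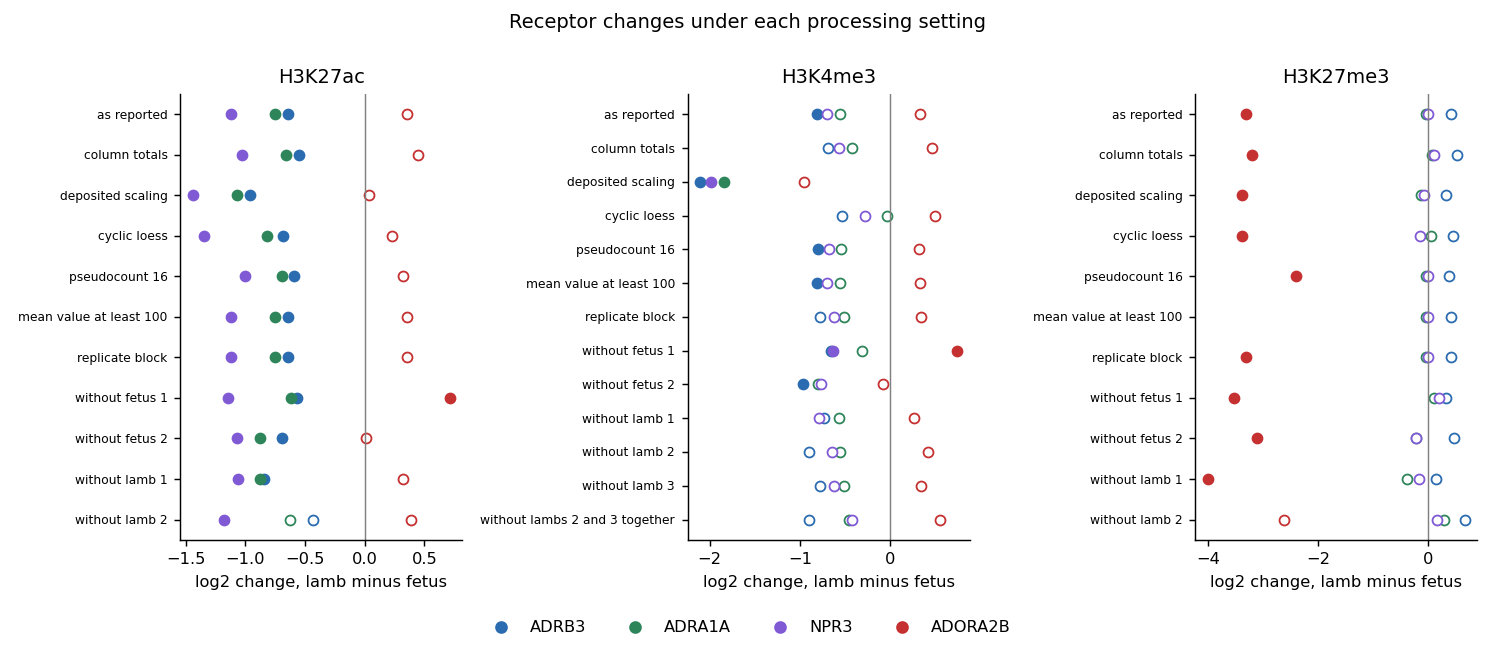
Log2 change (lamb minus fetus) of each receptor under each way of scaling, filtering or leaving out a library, 1 panel per mark; filled points have an adjusted p under 0.05 and open points do not. NPR3 in H3K27ac is filled in every row, from -1.44 to -1.001, while ADRB3 in H3K4me3 is open in most rows.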

How the data were processed

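Chromatin immunoprecipitates of H3K27ac, H3K4me3 and H3K27me3 were sequenced as 50 bp single-end reads from fragments of about 150 bp, per the labels' protocols. The design text names CLC Genomics Workbench 7.0 and the Oar_v3.1 build, and bedtools 2.19.0, MACS and edgeR appear in the submitters' processing notes with no role given. The authors deposited promoter values as a scaled signal, in which 1 read is worth 0.369 to 3.57 and 100% of values were whole numbers of reads within 0.02. The authors also deposited read counts per peak region, used here for depth, and their own test per promoter (headed EDGE, per the file headers). That test gives a p-value, a false discovery rate and a signed fold change, which the authors deposited as a score below 0 where lambs were lower. Its fold and p headers are exchanged in the H3K27me3 table, as the values show. No label or header states the width of the promoter window. The lowest maximum of any listed promoter over its libraries was 50.2 as deposited, so weaker promoters are not analysed here. A total of 1 blank line was left out, and the pooled inputs were not used.

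The promoter values of a library were put on a common scale by its column total and edgeR's TMM factor (edgeR 4.0.16), relative to the mean over libraries. Stage was tested with limma 3.58.1 in R 4.3.3 (trend, log2(value + 1), stage as the only term, adjusted over all promoters of a mark), first tested on simulated data. The design foresaw a test on counts if the promoter tables held them; they hold scaled values. The smallest two-sided exact permutation p for a single promoter is 0.333 for 2 against 2 and 0.2 for 2 against 3. The animals are separate, 1 library per animal and mark.

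The text names the 4 receptors, the other measured receptors of their families (1 is counted but not reported here), up to 4 genes per pathway list and mark with the smallest p among those that passed, and the 3 promoters most alike to each receptor; GSN and the neighbours were named after their values were seen. The receptors, lists and tests were chosen with earlier results of these data known. Alternatives covered other scalings, a pseudocount of 16, a mean value of at least 100, a replicate block and leaving out each library. No sequence is shown.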

Additional observations from a re-analysis of the deposited data

How the results depend on the processing

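Of 127 receptor values under alternative settings, 103 kept their direction and their side of the threshold, 10 lost a call, 5 gained one and 9 changed sign. H3K27ac of NPR3 kept its call throughout. H3K27me3 of ADORA2B kept its call in 8 of 9 settings, all of which share its listing through fetal values alone. A minimum mean value of 100 removes that promoter. The H3K4me3 call of ADRB3 was lost with column totals (-0.69, limma adjusted p = 0.0714), cyclic loess (-0.54, 0.341) and lambs 2 and 3 left out together (-0.90, 0.999757, with the lone lamb assumed to vary like the fetuses). At the deposited scaling, where the median H3K4me3 change was -1.28, ADRA1A passed at -1.84 (limma adjusted p = 0.0457), NPR3 at -1.98 (0.0357), and ADORA2B turned to -0.95 (0.148). With cyclic loess the H3K4me3 change was only -0.03 for ADRA1A (limma adjusted p = 0.964) and -0.28 for NPR3 (0.488). H3K27me3 of ADRA1A was 0.067 with column totals and 0.059 with cyclic loess, and that of NPR3 0.11 with column totals; none of these passed. Column totals moved the median of all promoters to 0.11 (H3K27ac), 0.13 (H3K4me3) and 0.13 (H3K27me3), and the deposited scaling moved that of H3K27ac to -0.30.

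Leaving out 1 library at a time gave ranges of change. In H3K27ac they were -0.84 to -0.43 for ADRB3, -0.88 to -0.61 for ADRA1A and 0.011 to 0.71 for ADORA2B. In H3K4me3 they were -0.97 to -0.66 for ADRB3, -0.80 to -0.32 for ADRA1A, -0.79 to -0.62 for NPR3 and -0.079 to 0.74 for ADORA2B. In H3K27me3 they were -0.38 to 0.28 for ADRA1A, -0.22 to 0.19 for NPR3 and -4.002 to -2.63 for ADORA2B.

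The number of promoters that passed was 3849 for H3K27ac, 1322 for H3K4me3 and 839 for H3K27me3. It became 2486 (H3K27ac) and 394 (H3K27me3) with cyclic loess, and 5678 (H3K4me3) and 540 (H3K27me3) at the deposited scaling. For H3K4me3 it was 0 in limma with cyclic loess (1738 at an unadjusted p under 0.05), and 0 without lambs 2 and 3 together (102 at an unadjusted p under 0.05). Without 1 library it ranged from 1177 to 5846 (H3K27ac), 12 to 5680 (H3K4me3) and 0 to 1405 (H3K27me3). H3K27ac split into 1508 higher and 2341 lower, but 2314 and 1789 with column totals and 167 and 4012 at the deposited scaling. H3K4me3 split into 1077 higher and 245 lower, but 55 and 5623 at the deposited scaling. H3K27me3 split into 280 higher and 559 lower, but 435 and 368 with column totals.

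Replicate numbers name different animals in fetuses and lambs and do not pair them. Deviations of same-numbered libraries correlated at 0.28 (H3K27ac), -0.39 (H3K4me3) and 0.10 (H3K27me3). With a replicate block ADRB3 in H3K4me3 had a change of -0.78 (limma adjusted p = 0.808), and 5 promoters passed in that mark. The cause of these shifts was not tested. The planned edgeR and DESeq2 tests on recovered reads were not run. Depth limits H3K27me3 most, with 2 to 50 reads behind the ADORA2B values.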
